A study of Mus musculus with 23 samples.

Results

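Ccn1 (formerly Cyr61) and Ccn2 (formerly Ctgf) are the CCN matricellular genes followed here, 2 of the 8131 named genes on the array. They were chosen by symbol, and each is measured by 1 probe set, 92777_at for Ccn1 and 93294_at for Ccn2. Ccn1 (gene ID 16007) lies at chr3:145646971-145649985 and Ccn2 (gene ID 14219) at chr10:24595442-24598683 in the RefSeq annotation of mouse build GRCm38.p6. Total RNA of mouse embryonic stem (ES) cells, the pluripotent cells of the early embryo in culture, was measured on 23 arrays, 72 hours after transfection with a plasmid. The lines were E81 (-/-), E100 (-/-), E99 (+/-) and wild-type E14. The plasmids were SRF-VP16, the control SRFdM-VP16, and vector. SRF-VP16 is a fusion of serum response factor (SRF), which binds DNA at actin, muscle and growth-response genes, with the strong viral activator VP16. Which gene the -/- and +/- genotypes refer to, and how SRFdM-VP16 differs from SRF-VP16, is not in the labels. The labels write E99 as E14-99 on its vector arrays, and these were taken as the same line. Every one of the 12 groups had 2 arrays except E100 with vector, which had 1. All 4 lines are cultured cells, and nothing in the labels says that the 2 arrays of a group came from separate cultures, so p-values cover the spread between these arrays alone, which may be technical.

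CCN proteins are secreted, cysteine-rich proteins of the extracellular matrix. They bind integrins, heparan sulfate proteoglycans and growth factors, and they act on adhesion, migration and matrix production more than as structural parts of the matrix. Ccn1 and Ccn2 are known in many cell types as rapidly induced genes that respond to serum, to actin signalling through SRF and its cofactors, to YAP and TEAD in the Hippo pathway, and, for Ccn2, to TGF-beta. Both are needed in mouse development, Ccn1 in vessels and Ccn2 in cartilage and bone.

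The upstream sequence of Ccn1 is shown because the arrays compare plasmids that encode forms of a DNA-binding factor. The RefSeq promoter table of build GRCm38.p6 held 1 of the 2 genes, Ccn1. The 250 bases before its start lie at chr3:145649986-145650235 on the minus strand and are given 5′ to 3′. Capitals mark, in this order, the reverse complement CATTCC of the TEAD motif GGAATG at 103 to 98 bases before the start, the reverse complement CGTCA of the cyclic AMP response half-site TGACG at 58 to 54 bases, and a TATA box TATAAA at 25 to 20 bases. The upstream window of Acta1, skeletal muscle actin, is set beside it because it holds a CArG box, the element that SRF is known to bind, and because Acta1 was among the genes whose levels ran most like those of Ccn1. It lies at chr8:123894776-123895025 on the minus strand, and its capitals mark the CArG box at 73 to 64 bases before the start. It also holds CATTCC at 46 to 41 bases and TATAAA at 7 to 2 bases, left in lower case. The window of Acta2, whose levels ran most like those of Ccn1, held no CArG box and is not shown.
Ccn1: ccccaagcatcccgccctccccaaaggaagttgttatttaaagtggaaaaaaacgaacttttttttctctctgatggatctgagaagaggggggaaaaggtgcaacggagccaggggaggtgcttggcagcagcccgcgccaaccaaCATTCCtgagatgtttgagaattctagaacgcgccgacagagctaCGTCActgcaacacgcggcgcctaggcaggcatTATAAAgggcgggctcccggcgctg
Acta1: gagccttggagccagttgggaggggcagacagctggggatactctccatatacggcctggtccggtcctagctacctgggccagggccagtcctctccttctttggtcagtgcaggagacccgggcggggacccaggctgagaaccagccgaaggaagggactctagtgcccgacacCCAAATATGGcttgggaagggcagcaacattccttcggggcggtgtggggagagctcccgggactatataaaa
No CArG box was found in the Ccn1 window on either strand, which says only that these letters are not in these 250 bases. Among 32851 RefSeq windows of the same length, a CArG box was found in 1.47%, the TEAD motif in 12.6%, the half-site in 17.8% and the TATA box in 12.4%. The motifs were searched on both strands and do not overlap one another in the Ccn1 window.

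The probe sets gave 1 linear intensity per array in arbitrary units, and a dim probe set can be below 0. Per array, the median intensity was 54 to 209 and 23.4% to 43.6% of probe sets were at 0 or lower. A floor of 58 replaced lower intensities when log2 was taken, so a fold against such values understates the difference of intensities. The number of arrays limits the precision. The ES cell label was checked on 12 markers, of which 11 to 12 were above the floor on every array, Pou5f1, Nanog and Sox2 among them on all 23. Of the 10 fibroblast markers on the array, 1 to 6 were above the floor on an array. S100a4 was above it on all 23, Lum on 19, Col3a1 on 14, Dcn on 13, Lox on 12, Pdgfrb on 4, Pdgfra and Postn on 2 each, Col1a2 on 1 and Fap on 0. The wild-type vector and SRFdM-VP16 arrays numbered 2 stood apart from those numbered 1 in both CCN genes and in smooth-muscle markers. The wild-type change over SRFdM-VP16, and differences from wild type that use these arrays, are given with and without them.

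Ccn1, which encodes a secreted ligand of integrins, was bright on every array with SRF-VP16 and near the floor on most control arrays. In E81 it had intensities of 1696 and 2477 with SRF-VP16, against -35 and 149 with SRFdM-VP16 and 25 and 134 with vector. In E100 it had 1961 and 1028 with SRF-VP16, against 56 and 13 with SRFdM-VP16 and -30 on the single vector array. The SRF-VP16 arrays of both -/- lines lay above all of their control arrays, and 5 of these 7 control arrays were below the floor. In E99 it had 436 and 566 with SRF-VP16, against 99 and 43 with SRFdM-VP16 and 99 and 165 with vector. In wild type it had 2000 and 610 with SRF-VP16, against 92 and 655 with SRFdM-VP16 and 86.5 and 1122 with vector. In each of E81, E100 and E99 the SRF-VP16 arrays lay above the arrays of both controls. The share of all probe sets with this pattern in a single line was not counted. In E99 against SRFdM-VP16 alone, 29.5% of all probe sets were higher without overlap. In wild type the groups overlapped, and the control arrays numbered 2 were brighter than the dimmer SRF-VP16 array.

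Ccn2, which encodes connective tissue growth factor, was also brightest with SRF-VP16 in E81, E100 and E99. In E81 it had intensities of 3872 and 7583 with SRF-VP16, against -136 and 560 with SRFdM-VP16 and -50 and 525 with vector. In E100 it had 8324 and 4214 with SRF-VP16, against 142 and 804 with SRFdM-VP16 and 80 with vector. In E81 and E100 the lowest SRF-VP16 array, at 3872, lay above the highest control array, at 804. In E99 it had 1671 and 2711 with SRF-VP16, against 535 and 266 with SRFdM-VP16 and 352 and 105 with vector. In wild type it had 3829 and 2503 with SRF-VP16, against 291 and 3364 with SRFdM-VP16 and 117.2 and 5259 with vector. In E99 the SRF-VP16 arrays lay above the arrays of both controls, a pattern whose share of all probe sets was not counted. In wild type the vector array numbered 2 was above both SRF-VP16 arrays.

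**Figure D1:**
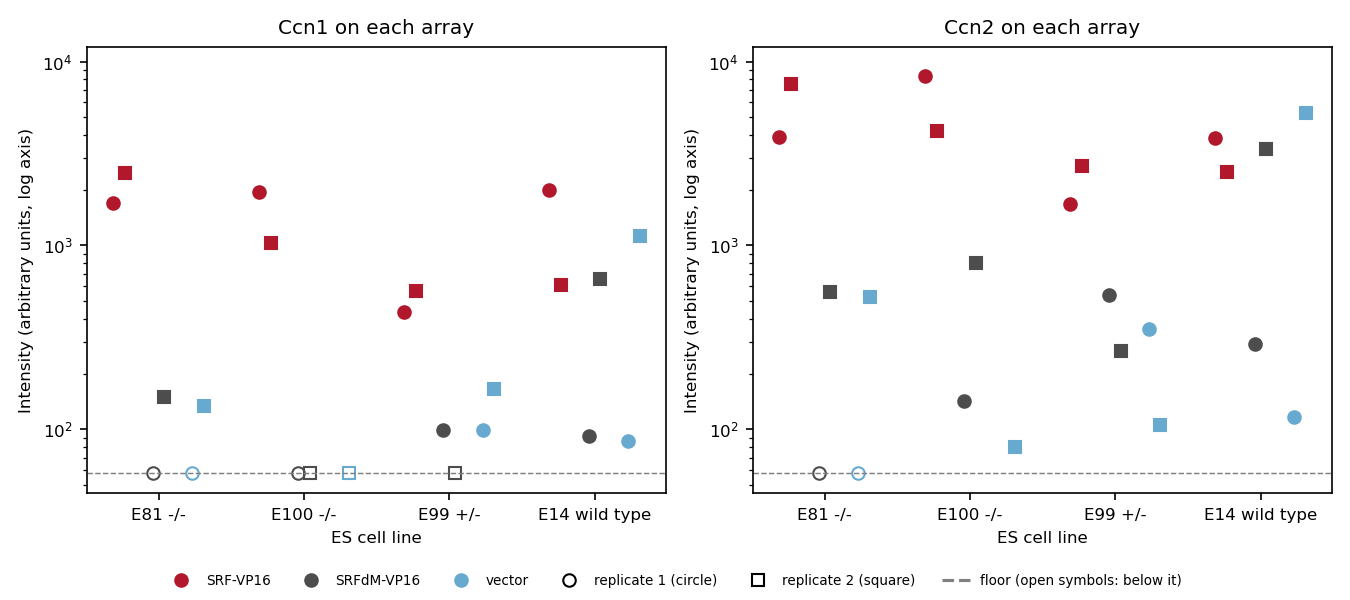
Intensity of Ccn1 (left) and Ccn2 (right) on each of the 23 arrays, in arbitrary units on a log axis, by line, with plasmids side by side and circles and squares for replicates 1 and 2. Open symbols are values below the floor of 58, drawn on the dashed floor line. All 8 SRF-VP16 arrays lie above 13 of the 15 control arrays for both genes, and the exceptions are the wild-type controls numbered 2. The share of all probe sets with this pattern was not counted.

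For Ccn1 the lowest of the 8 SRF-VP16 arrays, 436, was 2.64 times the highest of the 13 control arrays other than the wild-type arrays numbered 2, at 165. For Ccn2 the lowest SRF-VP16 array, 1671, was 2.08 times the highest of those 13, at 804. The wild-type control arrays numbered 2 were set aside here after their values were seen. The share of all probe sets with such a gap was not counted. None of the 8 SRF-VP16 arrays was below the floor for either gene, against 6 of 15 control arrays for Ccn1 and 2 of 15 for Ccn2. Within an array of the -/- lines, Ccn1 stood at the 79.5th to 86.9th percentile of all probe sets with SRF-VP16, against the 19.7th to 53.7th on the 7 control arrays. Ccn2 stood at the 92.8th to 96.9th percentile with SRF-VP16, against percentiles from 16.7 to 72.2 on the controls. All SRF-VP16 arrays lay above all other arrays of the -/- lines for 3.34% of the 9643 probe sets measured, Ccn1 and Ccn2 among them. In bulk RNA, more cells that express a gene and more RNA per cell cannot be told apart.

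Ordered by mean ± SD (n = 2 arrays each), Ccn1 was highest in E81 with SRF-VP16 at 2086 ± 552, then in E100 with SRF-VP16 at 1494 ± 660 and wild type with SRF-VP16 at 1305 ± 983. Wild type with vector, 604.2 ± 732, came next, before E99 with SRF-VP16 at 501 ± 91.9 and wild type with SRFdM-VP16 at 373.5 ± 398. The remaining 6 groups were control groups, from 132 ± 46.7 in E99 with vector to the single value of -30 in E100 with vector. Each pair of neighbours in this order overlapped in range except E100 with SRFdM-VP16 and E100 with vector, both under the floor. For Ccn2 the order was E100 with SRF-VP16 at 6269 ± 2910, E81 with SRF-VP16 at 5728 ± 2620, wild type with SRF-VP16 at 3166 ± 938, wild type with vector at 2688 ± 3640, E99 with SRF-VP16 at 2191 ± 735 and wild type with SRFdM-VP16 at 1828 ± 2170. The other 6 groups lay between 473 ± 468 in E100 with SRFdM-VP16 and 80 in E100 with vector. Only E81 and wild type with SRF-VP16 were neighbours without overlap for Ccn2.

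In the -/- lines together, Ccn1 rose 23.2-fold with SRF-VP16 over SRFdM-VP16, a log2 change of 4.54 ± 0.78 (SE; 95% interval 2.85 to 6.22; limma's adjusted p = 0.006). Ccn2 had nearly the same fitted change, 4.52 ± 1.2 (interval 1.93 to 7.12), but a wider spread between arrays, and it did not pass the threshold of 5% (limma's adjusted p = 0.067). Of all probe sets, 2.48% passed as higher and 0.342% as lower in this comparison and the median change was 0.04. With the floor at the 60th percentile of all values, the change of Ccn1 was 2.5 and it still passed. Ccn1 was the 20th and Ccn2 the 22nd of 9643 probe sets by size of change. On intensities, without floor or logarithm, Ccn1 averaged 1790 ± 603 with SRF-VP16 and 45.8 ± 78.2 with SRFdM-VP16 (SD, n = 4 each). Ccn2 averaged 5998 ± 2280 with SRF-VP16 and 342.5 ± 420 with SRFdM-VP16. An exact two-sided permutation test gave p = 0.0286 for each gene, the smallest that 70 splits of 4 against 4 arrays allow. These arrays did not overlap for either gene, as for 4.93% of all probe sets that were higher.

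The other control plasmid gave the same direction. Against vector in the -/- lines, where vector averaged 43 ± 83.5 for Ccn1 and 185 ± 302 for Ccn2 (SD, n = 3), the log2 change was 4.58 ± 0.88 for Ccn1 (limma's adjusted p = 0.014) and 5.58 ± 1.35 for Ccn2 (adjusted p = 0.042). Of all probe sets, 1.56% passed as higher there. The comparisons with SRFdM-VP16 and with vector share their SRF-VP16 arrays. SRFdM-VP16 minus vector over all lines was -0.26 ± 0.59 for Ccn1 (interval -1.52 to 1.01; limma's adjusted p = 0.87), with the sign turned under quantile normalization (0.19) and division by the array median (0.10). It was 0.86 ± 0.90 for Ccn2 (interval -1.09 to 2.80; limma's adjusted p = 0.70). The median probe set of that comparison was at -0.20, and 0.799% passed in either direction.

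Each -/- line alone, with 2 arrays a group, gave fitted changes over 4 that did not pass the threshold, which 0.944% of probe sets passed as higher in E81 and 0.757% in E100. For Ccn1 the log2 change was 4.46 ± 1.11 in E81 (limma's adjusted p = 0.079) and 4.61 ± 1.11 in E100 (adjusted p = 0.07). The fitted change of Ccn1 in E100 was 24.5-fold (interval 2.229 to 6.998 log2 units). Both E100 arrays with SRFdM-VP16 were below the floor for Ccn1, so this fold understates the difference of intensities between these arrays. It is not a lower bound, since the interval reaches lower values. For Ccn2 the log2 change was 4.91 ± 1.70 in E81 (limma's adjusted p = 0.21) and 4.13 ± 1.70 in E100 (adjusted p = 0.33). The effect in E81 minus that in E100 was -0.15 ± 1.57 for Ccn1 (interval -3.52 to 3.22; limma's adjusted p = 1) and 0.78 ± 2.41 for Ccn2 (interval -4.41 to 5.97; adjusted p = 0.93), where 0.145% of probe sets passed. The sign of both differences turned when single arrays were left out, and the median probe set differed by 0.52.

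Over all 4 lines, Ccn1 rose 11.2-fold with SRF-VP16 over SRFdM-VP16, a log2 change of 3.49 ± 0.55 (interval 2.30 to 4.68; limma's adjusted p = 0.0057). Ccn2 changed by 3.30 ± 0.85 (interval 1.46 to 5.13), which did not pass (limma's adjusted p = 0.069). Of all probe sets, 1.79% passed as higher and the median change was 0.08. By intensity, Ccn1 averaged 1347 ± 783 with SRF-VP16 and 134 ± 218 with SRFdM-VP16, and Ccn2 averaged 4338 ± 2390 with SRF-VP16 and 728.2 ± 1100 with SRFdM-VP16 (SD, n = 8 each). An exact two-sided permutation test over 12870 splits gave p = 0.000622 for each gene, where the smallest possible is 0.000155. Against vector over all lines the log2 change was 3.23 ± 0.59 for Ccn1 (limma's adjusted p = 0.014) and 4.15 ± 0.90 for Ccn2 (adjusted p = 0.035), where 0.892% of probe sets passed as higher. With the wild-type control arrays numbered 2 left out, a choice made after seeing the data, Ccn2 passed against SRFdM-VP16 both in the -/- lines (4.52; limma's adjusted p = 0.019) and over all lines (3.74; adjusted p = 0.014).

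**Figure D2:**
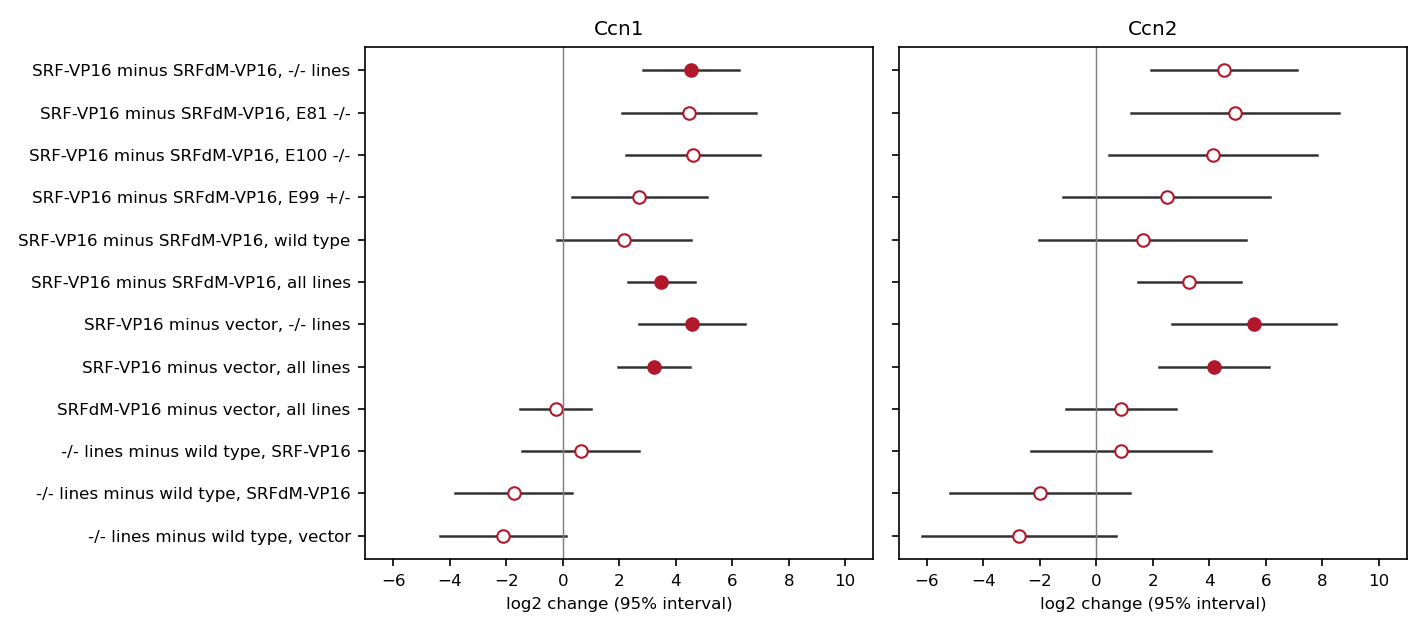
Fitted log2 change of Ccn1 (left) and Ccn2 (right) in 12 comparisons, with 95% intervals from limma. Filled points passed an adjusted p of 5%. The 4 filled points of Ccn1 are SRF-VP16 against either control in the -/- lines and over all lines, and those of Ccn2 are the SRF-VP16 against vector comparisons in the same sets of lines.

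In E99, SRF-VP16 minus SRFdM-VP16 was 2.71 ± 1.11 for Ccn1 (interval 0.33 to 5.10; limma's adjusted p = 0.95) and 2.50 ± 1.70 for Ccn2 (interval -1.17 to 6.17; adjusted p = 1). The arrays did not overlap for either gene, as for 29.5% of all probe sets that were higher in this comparison of 2 against 2 arrays. In wild type it was 2.17 ± 1.11 for Ccn1 (interval -0.21 to 4.55; limma's adjusted p = 1) and 1.65 ± 1.70 for Ccn2 (interval -2.02 to 5.32; adjusted p = 1). Of all probe sets, 0.0415% passed in E99 and 0.0207% in wild type. Without the wild-type SRFdM-VP16 array numbered 2 the wild-type change was 3.59 for Ccn1 and 3.41 for Ccn2, and neither passed. The effect in the -/- lines minus that in wild type was 2.37 ± 1.36 for Ccn1 (interval -0.55 to 5.29; limma's adjusted p = 1) and 2.88 ± 2.09 for Ccn2 (interval -1.62 to 7.37; adjusted p = 1), where 0.083% of probe sets passed. A difference between the -/- lines and wild type in the response to SRF-VP16 was thus not detectable. Its intervals include 0 and reach 5.29 and 7.37 log2 units. Without the wild-type SRFdM-VP16 array numbered 2, that difference in effect was 0.95 for Ccn1 and 1.11 for Ccn2. The effect in the -/- lines minus that in E99 was 1.825 ± 1.36 for Ccn1 (interval -1.095 to 4.746). For Ccn2 it was 2.025 ± 2.09 (interval -2.469 to 6.518). Neither passed, where 0.0726% of probe sets passed.

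Setting lines against each other within a plasmid also gave no call. With SRF-VP16, the -/- lines minus wild type was 0.63 ± 0.96 for Ccn1 (interval -1.44 to 2.69; limma's adjusted p = 0.93) and 0.87 ± 1.47 for Ccn2 (interval -2.31 to 4.05; adjusted p = 0.94), where 0.456% of probe sets passed. With SRFdM-VP16 it was -1.74 ± 0.96 for Ccn1 (interval -3.81 to 0.32; limma's adjusted p = 1) and -2.0 ± 1.47 for Ccn2 (interval -5.18 to 1.17; adjusted p = 1), where 0.0415% passed. With vector it was -2.12 ± 1.04 for Ccn1 (interval -4.35 to 0.11; limma's adjusted p = 1) and -2.73 ± 1.59 for Ccn2 (interval -6.16 to 0.70; adjusted p = 1), where 0.228% passed. Without the wild-type vector array numbered 2, the vector difference was -0.28 for Ccn1 and 0.01 for Ccn2. Without the wild-type SRFdM-VP16 array numbered 2, the SRFdM-VP16 difference was -0.325 for Ccn1 and -0.238 for Ccn2. With SRF-VP16, E99 minus wild type was -1.15 ± 1.11 for Ccn1 and -0.54 ± 1.70 for Ccn2, and the -/- lines minus E99 was 1.78 ± 0.96 for Ccn1 and 1.41 ± 1.47 for Ccn2, none with a limma adjusted p under 0.63, where 0.0311% and 0.664% of probe sets passed.

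The duplicate arrays of the wild-type controls differed more in Ccn1 and Ccn2 than in most genes. Ccn1 had 1122 on the vector array numbered 2 and 86.5 on that numbered 1, a ratio of 13, and 655 and 92 with SRFdM-VP16, a ratio of 7.12. Ccn2 had 5259 and 117.2 with vector, a ratio of 44.9, and 3364 and 291 with SRFdM-VP16, a ratio of 11.6. The lower array numbered 2 was at least 2-fold above the higher array numbered 1 for 3.35% of probe sets. Ranked by that ratio, Ccn2 was the 15th and Ccn1 the 29th of 9643. Acta2, Tagln and Cnn1 among 6 smooth-muscle markers moved with them. The summed intensity of the 6, with values below 0 counted as 0, was 18121 to 19809 on the control arrays numbered 2 and 598 to 820 on those numbered 1, beside 9076 to 28424 on the wild-type SRF-VP16 arrays. Acta2, smooth-muscle actin, had 7463 and 7302 on the control arrays numbered 2, against -242.3 and -52 on those numbered 1. Tagln had 9417 and 11738 on the arrays numbered 2, against 263.5 and 591 on those numbered 1, and these 2 genes made up most of the sum. Des had 308 and 404 on the arrays numbered 2, against 334.5 and 229 on those numbered 1, and Myh11 and Smtn were below the floor on all 4 of these arrays. The summed intensity of 10 fibroblast markers was 578 to 866 on the arrays numbered 2 and 521 to 963 on those numbered 1. That of 12 ES cell markers was 61361 to 83446 on the arrays numbered 2 and 90034 to 97046 on those numbered 1. The part of these differences between arrays in the wild-type results was not tested.

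Ccn1 and Ccn2 ran together across arrays. The array that was brighter for Ccn1 was also brighter for Ccn2 in 9 of 11 groups with duplicates, and the exceptions were E100 with SRFdM-VP16 and E99 with vector. Intensities were not scaled, and in most of the 9 groups that array also had the higher median intensity. In E81 with SRFdM-VP16 the medians were 105 and 54, while in E81 with SRF-VP16 that array had the lower median, 128 against 143. The share of gene pairs with such agreement was not counted. Over the 12 group means on the log2 scale, which share arrays and floor between genes, Pearson's r between Ccn1 and Ccn2 was 0.947, and it was 0.912 over the 23 arrays. Of 6784 genes ranked by likeness to Ccn1, Ccn2 came 8th, and of those ranked by likeness to Ccn2, Ccn1 came 9th. The nearest to Ccn1 were Acta2 (r = 0.982), Gsn, which encodes the actin-severing protein gelsolin (0.979), Igf2, a fetal growth factor (0.975), Acta1 (0.97) and the keratin gene Krt19 (0.966). The nearest to Ccn2 were Lgals1, which encodes galectin-1 (0.971), Acta2 (0.965), Tagln, which encodes the actin-binding protein transgelin (0.962), Igf2 (0.961) and Wls, which encodes a carrier of secreted Wnt proteins (0.961).

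**Figure D3:**
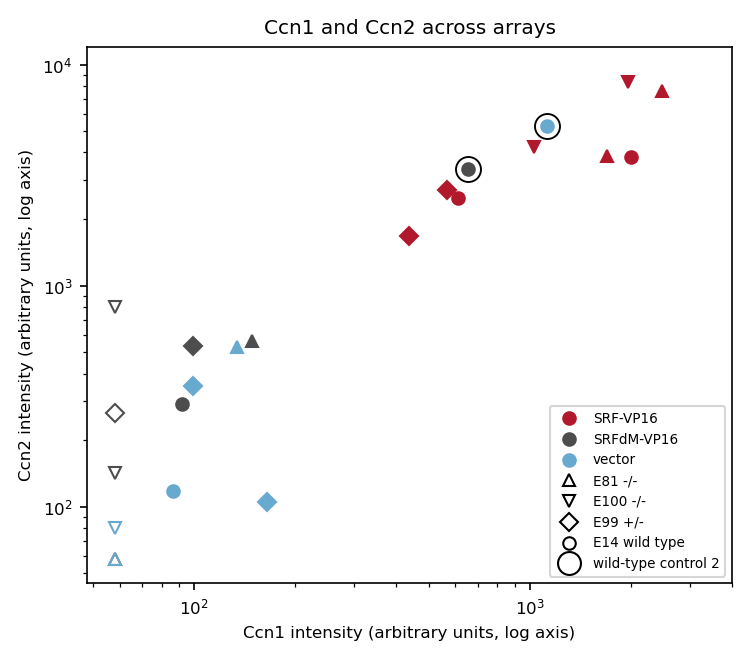
Ccn2 intensity against Ccn1 intensity on each of the 23 arrays, both in arbitrary units on log axes, with colour for plasmid and shape for line. Open symbols have at least 1 of the 2 genes below the floor of 58, 2 of them lie on each other at the floor of both genes, and large rings mark the wild-type controls numbered 2. The ringed arrays lie among the SRF-VP16 arrays, and the other controls reach 165 for Ccn1 and 804 for Ccn2.

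These genes were chosen by the same group means that hold the SRF-VP16 arrays, so their changes in the -/- lines are a description with no test. For SRF-VP16 minus SRFdM-VP16, the fitted log2 change was 7.60 ± 1.40 for Acta2, 4.37 ± 1.07 for Gsn, 7.47 ± 1.21 for Igf2, 7.45 ± 0.81 for Acta1 and 5.69 ± 0.99 for Krt19. Near Ccn2, it was 2.61 ± 0.53 for Lgals1, 7.61 ± 1.00 for Tagln and 2.21 ± 1.40 for Wls. Of these 8 genes, 5 had upstream windows in the RefSeq table, and 2 of the 5, Acta1 and Igf2, held a CArG box in a window. This count is by gene, and Igf2 and Gsn each had several windows. The share of 1.47% over all windows is by window, so the 2 are not on the same unit.

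Of the other CCN genes, Ccn4 (formerly Wisp1), a Wnt-responsive member, also rose in the -/- lines. It had intensities of 732 and 617 in E81 and 1141 and 877 in E100 with SRF-VP16, against -123 and 45 in E81 and 104 and 224 in E100 with SRFdM-VP16. The groups did not overlap, as for 4.93% of all probe sets that were higher, and the log2 change was 3.12 ± 0.58 (limma's adjusted p = 0.0088), and 2.11 ± 0.41 over all lines (adjusted p = 0.016). In wild type it had 433 and 108 with SRF-VP16, against 9 and 275 with SRFdM-VP16, and these overlapped. Over all lines the change of Ccn4 against vector was 1.26 ± 0.43, which did not pass (limma's adjusted p = 0.18). Its likeness to Ccn1 was lower (r = 0.82, the 86th gene) and to Ccn2 likewise (0.783, the 109th). Ccn5 (formerly Wisp2), which lacks the C-terminal domain of the other members, changed by 0.45 ± 0.20 in the -/- lines near the floor (limma's adjusted p = 0.33). Ccn3 (formerly Nov) was removed by the filter on dim probe sets, with a highest value of 71 on any array. Ccn6 was not measured here.

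Genes known in mouse or human cells as targets of YAP and TEAD, the pair through which the Hippo pathway is known to drive Ccn1 and Ccn2, were taken as a list of 22 without those members, of which 13 were measured. In the -/- lines 3 rose, 0 fell and 10 did not pass, with a median log2 change of 0.52, beside a median of 0.05 and 192 rises among 6813 named genes. F3, the gene of tissue factor, which starts coagulation, averaged 5703 ± 3690 with SRF-VP16 and 90 ± 84.7 with SRFdM-VP16 and rose by 5.73 ± 0.86 (limma's adjusted p = 0.0025). Edn1, which encodes the vasoconstrictor endothelin-1, averaged 2347 ± 940 with SRF-VP16 and -16.8 ± 121 with SRFdM-VP16 and rose by 4.97 ± 0.62 (adjusted p = 0.00076), while its dimmer probe set changed by 1.52. Ankrd1, a cardiac ankyrin-repeat gene, averaged 255.5 ± 141 with SRF-VP16 and -7.5 ± 45.4 with SRFdM-VP16, with all 4 SRFdM-VP16 arrays below the floor, and rose by 1.99 ± 0.43 (limma's adjusted p = 0.022). For Ankrd1 the call ended without any of 6 of the 8 arrays, those other than the E81 SRFdM-VP16 and E100 SRF-VP16 arrays numbered 2 (1.53 to 2.07), with a floor at the 60th percentile (0.15) and with only the arrays of the comparison (adjusted p = 0.15). Over all lines 3 of the 13 rose and 0 fell, beside 144 rises among the 6813 named genes.

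Of 10 measured Hippo pathway components of 18, 1 rose and 0 fell in the -/- lines, with a median of 0.47, beside 192 rises among 6813 named genes. Wwtr1, which encodes TAZ, the partner protein of YAP, averaged 1619 ± 522 with SRF-VP16 and 551.2 ± 182 with SRFdM-VP16, a change of 1.56 ± 0.31 (limma's adjusted p = 0.012). The dimmer probe set of Wwtr1 changed by 0.986. The call of the brighter one held in 15 of 20 alternative settings. It ended without the E81 SRF-VP16 array numbered 2 (1.45), against vector (1.24), with division by the array median (1.18), with only the arrays of the comparison (1.56; adjusted p = 0.071) and with a replicate block within line (1.56; adjusted p = 0.055). Yap1 itself lay near the floor, with a change of -0.56 ± 0.17 that did not pass (limma's adjusted p = 0.11). Of 11 measured genes of the TGF-beta pathway, 0 passed by limma in either direction, with a median of 0.28, and those of smallest p were Ltbp2, a latent TGF-beta binding protein gene, near the floor (0.60 ± 0.23), and Smad2, a TGF-beta signal transducer (1.27 ± 0.50). Of 9643 probe sets, 1294 had an unadjusted p under 0.05 in this comparison.

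Receptors and binding partners of the CCN proteins were mostly without a call. Of 20 measured of 24, 3 rose and 0 fell in the -/- lines, with a median of 0.25, beside 192 rises among 6813 named genes. Over all lines 1 of the 20 rose, beside 144 of the 6813. Fgfr2, an FGF receptor known to bind Ccn2, averaged 931.2 ± 228 with SRF-VP16 and 284.8 ± 65.3 with SRFdM-VP16 and rose by 1.70 ± 0.35 (limma's adjusted p = 0.016). Itgb1, the common beta subunit of many integrins, averaged 13290 ± 1660 with SRF-VP16 and 7250 ± 887 with SRFdM-VP16. It rose by 0.87 ± 0.19 (limma's adjusted p = 0.022) on a probe set of the _f_at kind, which is open to signal from related genes. The dimmer probe set of Itgb1 changed by 1.02 and did not pass (limma's adjusted p = 0.14). Hspg2, the gene of the heparan sulfate proteoglycan perlecan, averaged 2150 ± 1840 with SRF-VP16 and 140.2 ± 188 with SRFdM-VP16 and rose by 3.34 ± 0.76 (limma's adjusted p = 0.031). These calls ended when single arrays were left out, 3 for Fgfr2, 4 for Itgb1 and 5 for Hspg2. For Fgfr2 these were the arrays numbered 1 of E81 with either plasmid and of E100 with SRFdM-VP16 (1.60 to 1.65). For Itgb1 they were the E81 SRF-VP16 array numbered 2, the E100 SRF-VP16 array numbered 1 and the SRFdM-VP16 arrays numbered 2 of both lines (0.79 to 0.82). For Hspg2 they were those same arrays and the E100 SRFdM-VP16 array numbered 1 (2.71 to 3.50). The call of Fgfr2 held in 15 of 20 alternative settings and also ended against vector (1.49) and with a replicate block within line (adjusted p = 0.052). That of Itgb1 held in 14 of 20 and also ended with division by the array median (0.49) and with only the arrays of the comparison (adjusted p = 0.097). That of Hspg2 held in 9 of 20. It also ended with division by the array median (3.07), a floor at the 60th percentile (2.44), no filter (adjusted p = 0.06), only the arrays of the comparison (adjusted p = 0.19), a replicate block within line (adjusted p = 0.079), and the wild-type controls numbered 2 left out (adjusted p = 0.055).

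Immediate-early genes, the class in which Ccn1 and Ccn2 were first described, had the highest median of the pathway lists with over 2 measured genes in the -/- lines, 1.16 over 21 measured of 23. Of these 3 rose and 0 fell, beside 192 rises among 6813 named genes with a median of 0.05. Egr1, a zinc-finger factor of the serum response, averaged 16160 ± 6310 with SRF-VP16 and 242.5 ± 200 with SRFdM-VP16, a change of 6.11 ± 0.49 (limma's adjusted p = 1.5e-05). Its relative Egr2 averaged 7829 ± 2890 with SRF-VP16 and 572 ± 96.3 with SRFdM-VP16, a change of 3.70 ± 0.27 (adjusted p = 6.8e-06). Jun, an AP-1 subunit gene, changed by 2.81 ± 0.58 (limma's adjusted p = 0.018), and its call ended without any of 4 arrays, the SRF-VP16 arrays numbered 2 and the SRFdM-VP16 arrays numbered 1 of both lines (2.45 to 2.74), and with only the arrays of the comparison (adjusted p = 0.1). Fos, the partner of Jun in AP-1, had a change of -0.12 ± 0.32 that did not pass (limma's adjusted p = 0.95). Of 6 other measured matricellular genes of 15, 0 passed, with a median of 0.00, and those of smallest p were Sparc, a collagen-binding matricellular protein gene, at 2.11 ± 0.53 (limma's adjusted p = 0.051), and Thbs2, a thrombospondin gene near the floor, at -0.67 ± 0.26 (adjusted p = 0.26). In wild type and in E99, 0 genes passed by limma in any of these lists, where 346 and 432 probe sets had an unadjusted p under 0.05.

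**Figure D4:**
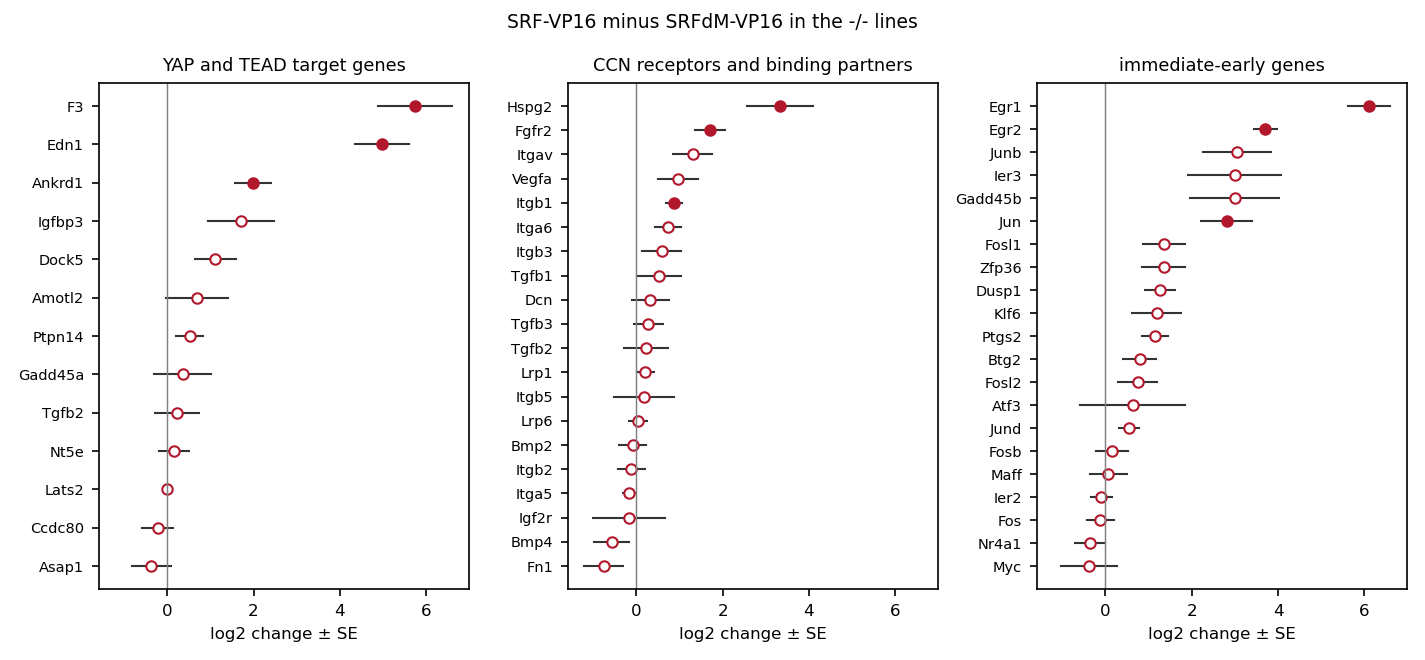
Log2 change ± SE from limma, SRF-VP16 minus SRFdM-VP16 in the -/- lines, for the measured genes of 3 lists: YAP and TEAD targets, CCN receptors and binding partners, and immediate-early genes. Filled points passed an adjusted p of 5%, which were 3 in each list, and all of them are higher with SRF-VP16.

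Markers of other cell types moved with the CCN genes in part. Among all 6813 named genes, 192 rose and 25 fell with SRF-VP16 over SRFdM-VP16 in the -/- lines. In the -/- lines the summed intensity of the 6 smooth-muscle markers was 36813 to 51337 with SRF-VP16, against 855 to 1039 with SRFdM-VP16 and 479 to 1241 with vector. Acta2 (limma's adjusted p = 0.0088) and Tagln (adjusted p = 0.00093) rose, Cnn1 (2.81 ± 0.82) and Des (1.44 ± 0.36) did not pass, and Myh11, which marks mature smooth muscle, was above the floor on 1 of the 23 arrays and Smtn on 0, and both were removed by the filter. The 10 fibroblast markers summed to 441 to 1101 with SRF-VP16 and 420 to 634 with SRFdM-VP16, and 0 of 8 measured passed by limma. Among the measured endothelial markers 0 of 4 passed. Pecam1 was above the floor on 21 arrays, Kdr on 19, Tek on 18, Vwf on 10, and Cdh5 and Tie1 on 0. Of 6 measured primitive-endoderm markers, 0 passed. Among the trophoblast markers 2 of 5 rose, Krt7 by 4.30 ± 0.41 (limma's adjusted p = 8.3e-05) and Tpbpa, near the floor, by 0.85 ± 0.11 (adjusted p = 9e-04). The change of Tpbpa was 0 with a floor at the 60th percentile, and limma's adjusted p was 0.087 with only the arrays of the comparison. Its effect in E81 minus that in E100 was -1.71 ± 0.22 (limma's adjusted p = 0.0052), where 0.145% of probe sets passed, so its rise was that of E100. Cdx2 (0.22 ± 0.26), Eomes (0.58 ± 0.55) and Ascl2 (0.26 ± 0.34) did not pass, and Hand1 was removed by the filter. The 6 trophoblast markers on the array summed to 711 to 3041 with SRF-VP16 and 40 to 559 with SRFdM-VP16. ES cell markers summed to 42338 to 68384 with SRF-VP16, against 60602 to 124986 with SRFdM-VP16. Of the 12, 2 fell, Klf2 with a log2 change of -2.43 ± 0.35 (limma's adjusted p = 0.002; 0.078 with only the arrays of the comparison) and Fgf4 with -1.15 ± 0.22 (adjusted p = 0.012, a call that ended without the E100 SRFdM-VP16 array numbered 2, at -0.95, against vector, at -0.76, and with only the arrays of the comparison, adjusted p = 0.12). The part of these cell-type markers in the CCN results was not tested.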

How the data were processed

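Per the labels, RNA of 23 ES cell samples in 12 groups was measured on oligonucleotide arrays. Intensities are linear, in the form the authors deposited them, with 1 value for each probe set on an array. How they were background-subtracted and scaled, and with which software, no label or header says, so they were neither rescaled nor shifted. Of all values, 29.1% were at or below 0. The array has 12502 probe sets, 66 of them controls that entered no test. A probe set was kept if it was above the 40th percentile of its array on at least 2 arrays, which kept 9643 and removed 2793. Values below the 40th percentile of all values, 58, were set to 58, which is 39.9% of them, and log2 was taken.

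Genes were named from the platform annotation. It pairs 10141 probe sets with 1 symbol, 362 with several and 1933 with none, and 6813 named genes were measured. A gene with more than 1 probe set is given by its brightest.

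Tests used limma 3.58.1 in R 4.3.3, fitting a mean for each of the 12 groups to the 23 arrays together (11 residual degrees of freedom), with moderated variances with an intensity trend, and two-sided p-values with Benjamini-Hochberg adjustment over 9643 probe sets at 5%. The spread is pooled over groups, and the lone E100 vector array is taken to vary as the rest do. Exact permutation tests used the intensities, shuffled arrays without regard to line, and were not adjusted over probe sets. Per gene list, up to 4 called genes of smallest adjusted p in the -/- comparison were named, or 2 by value where none was called. For likeness, the 5 genes of highest Pearson correlation over the 12 group means were named. Genes outside these rules (Ccn3, Ccn5, Yap1, Fos and the markers given beside the counts) were chosen after their values were seen. The procedure was tested on simulated data. Promoter windows and loci are from RefSeq, build GRCm38.p6. Members and lists were chosen with earlier results of these data known. Some genes are not reported here.

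Alternatives were quantile normalization, division by the array median, no filter or a filter at the 60th percentile, the inverse hyperbolic sine in place of log2, a higher floor (60th percentile), vector as the control, no intensity trend, a fit to the compared arrays alone, a term for replicate number, each array left out, and, chosen after seeing the data, both wild-type control arrays numbered 2 left out.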

Additional observations from a re-analysis of the deposited data

How the results depend on the processing

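Ccn1 passed the threshold with SRF-VP16 over SRFdM-VP16 in 20 of 20 alternative settings in the -/- lines (2.50 to 4.58; 4.2 to 4.88 with 1 array left out) and in 28 of 28 over all lines (1.76 to 3.84; 3.14 to 3.84 with 1 array left out). Ccn2 kept its direction in both but passed in 8 of 20 and in 10 of 28, with adjusted p from 0.019 to 0.24 and from 0.014 to 0.17. In the -/- lines it passed after quantile normalization (4.55; adjusted p = 0.045), with the filter at the 60th percentile (4.52; 0.03), the inverse hyperbolic sine (4.83; 0.045), vector as the control (5.58; 0.042), and without the wild-type controls numbered 2 (4.52; 0.019). Leaving out 1 array gave 3.70 to 5.34, and it passed without the E81 SRFdM-VP16 array numbered 2 (5.34; 0.036). Over all lines it passed with the filter at the 60th percentile (3.30; 0.028), the floor at the 60th percentile (2.84; 0.048), the inverse hyperbolic sine (3.43; 0.046), only the arrays of the comparison (3.30; 0.042), vector (4.15; 0.035), and without the wild-type controls numbered 2 (3.74; 0.014). Leaving out 1 array gave 2.85 to 3.74, and it passed without the wild-type SRFdM-VP16 array numbered 2 (3.74; 0.044) or the E81 SRFdM-VP16 array numbered 2 (3.70; 0.038).

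Samples share only a replicate number: the deviations of same-numbered arrays correlated at -0.393 to 0.417 over 55 pairs of groups, 29 of them above 0.1. The signs followed a pattern. Wild type with SRF-VP16, E99 with SRFdM-VP16 and E99 with vector correlated positively with one another (0.272 to 0.317). They correlated negatively with every other group, and all remaining pairs were positive. The number thus ran the other way in these groups, for a reason that was not tested. Neither replicate block below allows for this in wild type and E99. With the replicate block Ccn2 was 4.52 in the -/- lines (adjusted p = 0.041; 0.038 within line) and 3.30 over all lines (0.045; 0.046 within line).

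Signs turned where no call had been made. SRFdM-VP16 minus vector for Ccn1 was 0.191 after quantile normalization and 0.101 after division by the array median (-0.718 to 0.207 with 1 array left out). E81 minus E100 for Ccn1 was 0.53 with the floor at the 60th percentile and 0.388 with the inverse hyperbolic sine (-0.832 to 0.53), and for Ccn2 -1.25 with vector (-0.857 to 2.41). The -/- lines minus wild type with vector for Ccn2 was 0.0117 without the wild-type controls numbered 2 (-5.48 to 0.0117), and with SRF-VP16 for Ccn1 -0.229 to 1.48. In wild type, SRF-VP16 minus SRFdM-VP16 for Ccn2 was -0.12 to 3.41.

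Counts of probe sets passing moved too. In the -/- lines 272 passed (112 to 347 under other settings, 194 to 514 with 1 array left out), in wild type 2 (0 to 12; 2 to 35), in E99 4 (0 to 10; 4 to 23) and over all lines 189 (141 to 338; 108 to 432). For the effect in the -/- lines minus wild type 8 passed (3 to 19; 5 to 41), for E81 minus E100 14 (0 to 28; 15 to 430), and for SRFdM-VP16 minus vector 77 (0 to 179; 4 to 372). For the -/- lines minus wild type 22 passed with vector (1 to 132; 42 to 61), 4 with SRFdM-VP16 (0 to 8; 4 to 48) and 44 with SRF-VP16 (6 to 59; 45 to 106). The E100 vector array, alone in its group, could not be left out. The causes were not tested. Most Ccn1 control values lay near or under the floor, so its fold depends on the floor, and 2 arrays a group limit each line alone.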
